A study of Mus musculus with 2 samples.

Results

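The respiratory chain subunits that nuclear genes encode were examined in CH12.LX, a mouse B-cell lymphoma line. The members were the protein-coding genes whose GENCODE symbol names a subunit of complexes I to V (Nduf, Sdh, Uqcr, Cox4 to Cox8 and Atp5 symbols) or is Cyc1 or Cycs, a rule that reads symbols alone. Of 21474 protein-coding genes among 69691 features in the deposited gene tables, 86 were members: 37 of complex I, 4 of complex II, 9 of complex III with Cyc1, 1 for cytochrome c, 18 of complex IV and 17 of complex V. The study sequenced RNA of more than 200 nt from this line in 2 libraries, numbered as biological replicates 1 and 2 and drawn from separate biosamples. Both carried added ERCC spike-in RNAs, and the labels give no treatment and no genotype change. The line is immortalized, female, and derived from a mouse of strain B10.H-2aH-4bp/Wts. The labels call the assay total RNA-seq in one field and poly(A)+ in another, and which holds was not settled here.

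There was 1 group of 2 replicates and no second condition, so values are given for each library in the order replicate 1, replicate 2, as mean ± SD (n = 2) where a spread is shown, and nothing was tested between conditions. Libraries held 24469094 and 23586580 expected counts. Levels are in TPM (a transcript abundance relative to all RNA measured in the library and divided by effective transcript length), so that genes can be compared with each other. All 7 B-cell markers examined were at 1 TPM or more in both libraries, from Pax5, a transcription factor that maintains B-cell identity, at 9.09 and 7.77 TPM to Ms4a1, which encodes CD20, at 493 and 554 TPM. None of the 5 T-cell, 4 myeloid, 3 erythroid or 3 testis markers reached that level, and of 5 heart and skeletal muscle markers 1 did, Tnnt2 at 2.75 and 3.79 TPM.

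The respiratory chain lies in the inner mitochondrial membrane. Complex I takes electrons from NADH and complex II from succinate, complex III passes them to cytochrome c, and complex IV hands them to oxygen. Complexes I, III and IV pump protons, and complex V, the ATP synthase, uses the returning protons to make ATP. Complexes I, III, IV and V combine subunits made from nuclear genes with subunits made from mitochondrial DNA, while complex II is entirely nuclear-encoded. Several complex IV subunits exist as paralogs used in particular tissues such as muscle, lung or testis.

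Most members were highly expressed. In both libraries 79 of the 86 members reached 1 TPM, where 45.9% of all protein-coding genes did, and 64 of 86 reached 100 TPM, where 5.88% of protein-coding genes did. The median of the 79 was 195 TPM ± 3.67, and that of all 9862 protein-coding genes at this level was 19.1 TPM ± 0.0495. Together the members held 2.37% ± 0.0386 of TPM and 1.35% ± 0.00798 of expected counts. Of the 7 members below 1 TPM, 6 belonged to complex IV and 1 to complex I. The RNA came from bulk cultures, so a low level in all cells and a higher level in few cells cannot be told apart.

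The complexes differed in level, and their order was the same in both libraries. Complex I had the lowest median over its members, at 133.5 and 133.9 TPM. Complex II stood at 151 and 136 TPM, complex IV at 223 and 201 TPM and complex III at 250.3 and 265 TPM. Complex V was highest, at 516 and 507 TPM, or 3.82 ± 0.0527 times complex I within a library. Complexes I and II were close, since their ratio of 1.07 ± 0.0841 had an SD larger than its distance from 1. The complex IV median took in silent paralogs: its 12 genes at 1 TPM or more had a median of 380.4 TPM ± 7.72, which placed it above complex III. Within complexes, the gap between the highest and the lowest expressed gene by mean ran from 3.53-fold in complex II to 272-fold in complex V (the lowest being Atp5s).

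Summed levels gave another order, because complexes differ in their number of genes. Complex V held 37.4% ± 0.124 of the summed TPM of the members and complex I 25.9% ± 0.277. Complex IV held 20.5% ± 0.296, complex III 12.8% ± 0.128, complex II 2.92% ± 0.015 and cytochrome c 0.418% ± 0.0388. The order of complexes I and IV depends on where Ndufa4 is placed: with Ndufa4 and Ndufa4l2 in complex IV, and Atp5s and Cox7a2l left out, complex IV held 22.8% and complex I 22.4%.

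The core of complex I carries the flavin and the iron-sulfur clusters that lead electrons from NADH to ubiquinone. Its 7 nuclear-encoded genes lay within a narrow range. Ndufv2, an iron-sulfur protein of the NADH-oxidising module, was the highest at 205 and 226 TPM (mean 215 ± 14.6). Ndufv1, its partner that binds NADH and the flavin, was the lowest by mean at 91.7 and 91.7 TPM (mean 91.7 ± 0.0495), although Ndufs8 was lower in replicate 2. Between them stood Ndufs3, a subunit of the arm that faces the matrix, at 139.9 and 149 TPM. The iron-sulfur protein Ndufs7 had 118 and 94.6 TPM, and its values overlapped those of Ndufs1 and Ndufs8. Ndufs1, the largest subunit of the complex, had 106 and 106 TPM, and the iron-sulfur protein Ndufs8 had 102 and 87.9 TPM. The median of the core genes, 112 TPM ± 8.29, was below that of the other 30 complex I genes, 136 TPM ± 1.42. By mean, 4 of the 7 core genes were under the latter. Core transcripts were longer, with a median length of 1489 nt in replicate 1 against 662 nt for the others. With full length in place of effective length the order turned. The middle core gene, Ndufs1, was then at a mean of 136 TPM, and the middle others, Ndufa7 and Ndufb11, at 115 and 132 TPM.

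The other complex I genes encode accessory subunits, which surround the core and are needed for its assembly or stability. In all, 33 of the 37 complex I genes were between 50 and 400 TPM in both libraries. Ndufa4 (ENSMUSG00000029632.5, chr6:11900292-11907497, minus strand) was far above the rest, at 802 and 849.6 TPM (mean 826 ± 33.4). It is named as a complex I gene, but its protein is now assigned to complex IV, and its level lay among the highest complex IV genes. Next came Ndufb9, an accessory subunit of the membrane arm, at 337 and 397 TPM (mean 367 ± 42.1), so that Ndufa4 was 2.26 ± 0.168 times as high as the second gene. Ndufb5, also of the membrane arm, had 354 and 322 TPM, and its values overlapped those of Ndufb9.

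At the lower end, the accessory subunit Ndufa11 (ENSMUSG00000002379.6, chr17:56717767-56722141, plus strand) was the lowest expressed gene of complex I by TPM, at 12.5 and 9.900 TPM (mean 11.2 ± 1.82) on 636 and 484 counts. Its annotated length of 2661 nt was the longest of the complex. By counts it was not the lowest, since Ndufa3 had 278 and 218 counts. Ndufa13, also known as GRIM-19, was the next lowest by mean TPM, at 57.6 and 46.5 TPM. Ndufa5, a subunit of the matrix arm, had 51.6 and 70.1 TPM, and its values overlapped those of Ndufa13. Ndufs4, an accessory subunit whose loss causes a mouse model of mitochondrial disease, had 63.9 and 71.8 TPM. Ndufa4l2, the paralog of Ndufa4 known as a target of hypoxia-inducible factor, was nearly silent, at 0.06 and 0.07 TPM on 1 count in each library.

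By subfamily, the Ndufb genes, most of them in the membrane arm, had a median of 167 TPM ± 7.41 over 10 genes and the Ndufa genes one of 112 TPM ± 2.46 over 14. The 8 Ndufs genes had a median of 120.4 TPM ± 2.37. Ndufv3, the third Ndufv gene, had 236 and 238 TPM. Of the pair of Ndufc genes, Ndufc2 had 271 and 267 TPM and Ndufc1 159 and 179 TPM.

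Complex II, which is also succinate dehydrogenase of the citric acid cycle, had 4 genes. Sdhd, one of its membrane anchors, was the highest in both libraries (ENSMUSG00000000171.4, chr9:50596357-50603812, minus strand), at 306 and 326 TPM (mean 316 ± 14.5). Sdhc, the other anchor, had 157 and 136 TPM (mean 147 ± 14.9), so the anchors differed by a ratio of 2.17 ± 0.321. The iron-sulfur subunit Sdhb had 146 and 136 TPM (mean 141 ± 7.03) and overlapped Sdhc. Sdha, the catalytic flavoprotein, was the lowest at 95.2 and 84.8 TPM (mean 90.03 ± 7.35), and Sdhd exceeded it 3.53 ± 0.449 times. The values of Sdhd and of Sdha did not overlap with those of any other gene of the complex.

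In complex III the small subunits were by median above the catalytic and core proteins, with medians of 456 TPM ± 3.87 over 5 genes and 232 TPM ± 6.11 over 4 genes. Their transcripts were shorter, with a median length of 535 nt in replicate 1 against 1497 nt. With full length in place of effective length the gap was smaller. The middle small gene, Uqcrb, was then at a mean of 420 TPM, and the middle others, Uqcrfs1 and Uqcrc1, at 268 and 295 TPM. Uqcr11, at 244 TPM, was then below both of these. Uqcr10, a small membrane subunit (ENSMUSG00000059534.8, chr11:4701973-4704342, minus strand), led with 774 and 691 TPM (mean 732 ± 58.4). Uqcrh, the acidic hinge protein that contacts cytochrome c1, had 551 and 458 TPM (mean 505 ± 65.5). Uqcrb, a subunit near the ubiquinone site, had 453 and 556 TPM (mean 504 ± 72.6), and its values overlapped those of Uqcrh. Uqcr11, the smallest of the complex, had 341 and 338 TPM. The core proteins Uqcrc2 and Uqcrc1 had 249 and 265 TPM and 250.3 and 229 TPM. Uqcrfs1, the Rieske iron-sulfur protein, had 225 and 226 TPM (mean 225 ± 1.32), close to Uqcrc1.

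The lowest genes of complex III were Cyc1 and Uqcrq. Cyc1, which encodes cytochrome c1, had 129 and 119 TPM (mean 124 ± 7.07). Uqcrq, a small subunit next to cytochrome b, had 129 and 104 TPM (mean 117 ± 17.5), and its values overlapped those of Cyc1. Cytochrome c, the mobile carrier that accepts electrons from cytochrome c1 and can also trigger apoptosis, came from Cycs at 93.6 and 104 TPM (mean 98.95 ± 7.57) on 5570 and 5943 counts. Its testis paralog Cyct had 0 counts in both libraries, and all TPM of the pair were on Cycs.

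Complex IV, cytochrome c oxidase, had both silent genes and some of the highest. Cox7c, a small subunit, was highest (ENSMUSG00000017778.10, chr13:86044816-86046904, minus strand) at 1034 and 923 TPM (mean 979 ± 78.6). Cox6c, also a small membrane subunit, had 789.8 and 827 TPM (mean 808 ± 26.3), and its values lay below those of Cox7c in both libraries. Cox6b1, which bridges the complex IV dimer, had 512 and 500.3 TPM (mean 506 ± 7.98). Cox5b and Cox5a, which are subunits on the matrix side, had 396 and 369.7 TPM and 179 and 192 TPM.

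For 5 complex IV subunits the broadly expressed paralog held nearly all of the level. Cox4i1 had 399 and 455 TPM, while Cox4i2, the lung form, had 0 counts, which allows at most 0.283 and 0.295 TPM (3 counts per library, counting error only). Cox4i1 was thus at least 1409.8 and 1544-fold higher in the respective libraries. Cox6b1 was at least 894 and 840.5-fold above Cox6b2, the testis form, which also had 0 counts. Cox8a had 249 and 209 TPM, and Cox8b, the muscle form, and Cox8c, the testis form, had 0 counts, which puts Cox8a at least 242 and 195-fold above Cox8b and at least 439 and 355-fold above Cox8c. Cox6a1 had 197 and 155 TPM, against 0.88 and 0.34 TPM on 8 and 3 counts for the muscle and heart form Cox6a2, so that Cox6a1 held 99.7% ± 0.159 of the pair. Cox7b had 548 and 453 TPM and the testis form Cox7b2 0.15 and 0 TPM on 1 and 0 counts. In replicate 1 a short Cox7b transcript held a part of that level, and without transcripts under 50 nt of effective length Cox7b came to 411 and 453 TPM.

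The Cox7a family was shared by several genes. Cox7a2, the broadly expressed form (ENSMUSG00000032330.6, chr9:79755361-79759878, minus strand), had 376 and 380.2 TPM (mean 378 ± 2.88) and held 56.0% ± 0.0883 of the family. Cox7a2l, known as a factor in joining complexes III and IV into supercomplexes, had 281 and 291 TPM (mean 286 ± 6.45), or 42.4% ± 0.565. By expected counts, which are not divided by length, the order of the pair turned, with 44.9% ± 0.318 on Cox7a2 and 54.7% ± 0.421 on Cox7a2l. Cox7a1 (ENSMUSG00000074218.2, chr7:30184144-30186078, plus strand), the form of heart and skeletal muscle, was the only muscle-type paralog past 1 TPM in both libraries, at 13.2 and 8.79 TPM (mean 10.99 ± 3.12) on 39 and 25 counts, which was 1.63% ± 0.477 of the family. Beside it, of 5 heart and skeletal muscle markers Tnnt2 was above 1 TPM and Myh6, Myh7, Ckm and Acta1 were between 0 and 0.33 TPM in each library, and their part in the Cox7a1 level was not tested.

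**Figure D1:**
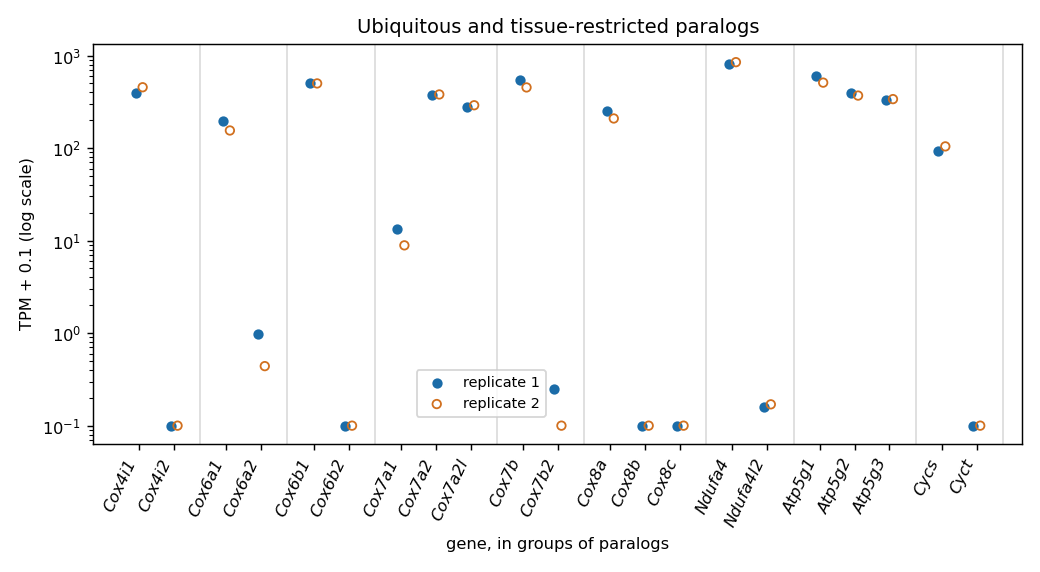
Level of paralogs (TPM plus 0.1, log axis) in replicate 1 (filled) and replicate 2 (open), with vertical lines between paralog groups. In the Cox4i, Cox6a, Cox6b, Cox7b, Cox8, Ndufa4 and cytochrome c groups 1 gene carries nearly all of the level, while the Cox7a and Atp5g groups are divided between several genes.

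Complex V is built from a catalytic F1 head in the matrix, a proton-conducting membrane part with a ring of c subunits, and stalks that join them. The F1 genes had both the highest and nearly the lowest levels of the complex. Atp5a1, the α subunit of the head (ENSMUSG00000025428.11, chr18:77773729-77782869, plus strand), was the highest of all 86 members at 1746 and 1603 TPM (mean 1675 ± 101). Atp5b, the catalytic β subunit (ENSMUSG00000025393.8, chr10:128083273-128090391, plus strand), followed at 1365 and 1327 TPM (mean 1346 ± 27.2), and Atp5a1 exceeded it 1.24 ± 0.0502 times within a library. The Atp5a1 level and its ratios here include a short transcript annotated as subject to nonsense-mediated decay. Without the TPM of that transcript, Atp5a1 would lie below Atp5b in both libraries. By counts over all transcripts, Atp5a1 had 50125 and 47646 and Atp5b 41910 and 39268. Atp5c1, the γ subunit of the central stalk, had 703 and 667 TPM (mean 685 ± 25.6), and Atp5e, the ε subunit, 517 and 507 TPM (mean 512 ± 7.04). Atp5d, the δ subunit of the same stalk (ENSMUSG00000003072.11, chr10:80138632-80145818, plus strand), had only 81.6 and 65.5 TPM (mean 73.5 ± 11.4) on 1236 and 943 counts, so that Atp5a1 was 22.9 ± 2.17 times and Atp5e 7.04 ± 0.993 times as high. One F1 head holds several copies of α and β for each γ, δ and ε subunit.

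The 11 genes of the peripheral stalk and the membrane part were more even, with a median of 499 TPM ± 14.6 and a 3.62-fold gap from the highest by mean, Atp5l, to the lowest by mean, Atp5j2. Atp5f1, Atp5mpl and Atp5h were above Atp5l in replicate 2, and Atp5k was below Atp5j2 in replicate 1. Atp5l, subunit g of the membrane part, had 613 and 562 TPM, and Atp5j2, subunit f, had 154 and 173 TPM (mean 163 ± 13.8). Atp5f1, Atp5h and Atp5o, which form the peripheral stalk with Atp5j, had 520.4 and 584 TPM, 509 and 573 TPM and 532 and 488 TPM, and their ranges overlapped. Atp5j, or coupling factor F6, had 213 and 240.2 TPM, below these stalk partners in both libraries. Atp5mpl, a small proteolipid of the membrane part, had 516 and 586 TPM, and Atp5k, subunit e, had 153 and 183 TPM. Atp5s, a coupling factor that is not a subunit of the purified enzyme, was the lowest of the complex at 6.33 and 5.96 TPM (mean 6.14 ± 0.262).

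Subunit c of the ring is made from Atp5g1, Atp5g2 and Atp5g3, which differ in the import signal and give the same mature protein. Their summed level was 1316 and 1219 TPM, between those of Atp5b and Atp5c1. This sum leaves out reads assigned to pseudogene copies, which are described below. With the copies Gm10175 and Gm10039 added, it would lie above Atp5b and Atp5a1 in both libraries. Atp5g1 had 598 and 510.4 TPM, or 43.7% ± 2.51 of the sum. Atp5g2 had 390.0 and 369.7 TPM (30.0% ± 0.502) and Atp5g3 328 and 339 TPM (26.4% ± 2.01), and the order was the same in both libraries.

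**Figure D2:**
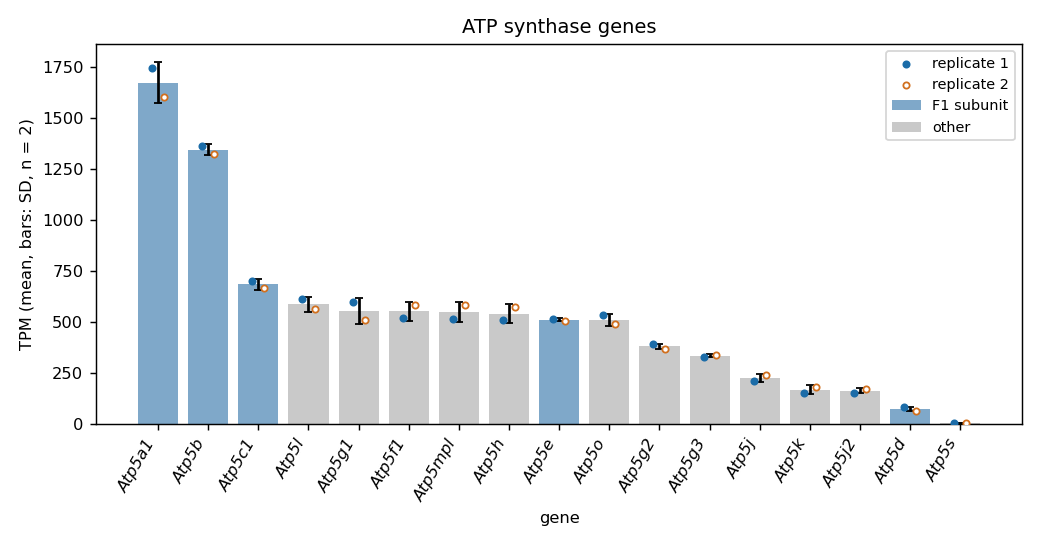
Level of the 17 complex V genes in TPM, from 0, as bars at the mean with SD (n = 2) and points for replicate 1 (filled) and replicate 2 (open), with F1 genes in blue. Atp5a1 and Atp5b stand above all others in both libraries, while Atp5d, also an F1 gene, is at 81.6 and 65.5 TPM.

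Part of these levels depends on how reads shared with processed pseudogenes were divided, because many respiratory chain genes have near-identical copies elsewhere in the genome. At 90% identity or more over 150 nt or more and at least 50% of the copy, 62 annotated pseudogene copies of 30 members were found, and 21 were at 1 TPM or more in both libraries. Their counts equalled 2.55% and 2.12% of those of the members. For 7 parents the copies held 5% or more of the joint counts. The largest share was that of Atp5g2, at 50.7% ± 4.29: its copy Gm10175 (ENSMUSG00000066724.2, chr7:23946646-23947290, minus strand), identical to the parent over 645 nt, was given 4797 and 3424 counts and 627 and 466 TPM, more TPM than the parent itself in both libraries. The deposited posterior SD of its count was 69.2 and 61.9 counts, which describes the division of shared reads within a library. With the copy added, Atp5g2 came to 1017 and 835 TPM. Atp5g1 with its own copy Gm10039 came to 690.2 and 580.0 TPM, and Atp5g2 was 1.46 ± 0.0233 times as high when both copies were added, so the order of these subunit c genes turned. Ndufb4, an accessory subunit of complex I, had 74.1 and 76.6 TPM, and its copy Ndufb4c (ENSMUSG00000083380.1, chr15:73809507-73809896, minus strand) had 319 and 285 TPM on 1114 and 958 counts, 47.7% ± 2.50 of the joint counts. With the copy added, Ndufb4 came to 393 and 361 TPM (mean 377 ± 22.2), which overlapped Ndufb9. Which gene stood second in complex I thus depends on how the reads were divided.

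The remaining 5 parents were Ndufa12 (12.6% ± 0.888), Atp5l (12.1% ± 1.42), Atp5h (8.36% ± 0.293), Uqcrb (5.49% ± 0.394) and Atp5g1 (5.44% ± 0.562). TPM overweights short copies: Gm12338, a copy of Cox7c of 192 nt, was listed at 592 and 308 TPM on only 31 and 9 counts. The levels of these parents and of their copies are therefore uncertain, and whether the copies are transcribed was not tested.

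**Figure D3:**
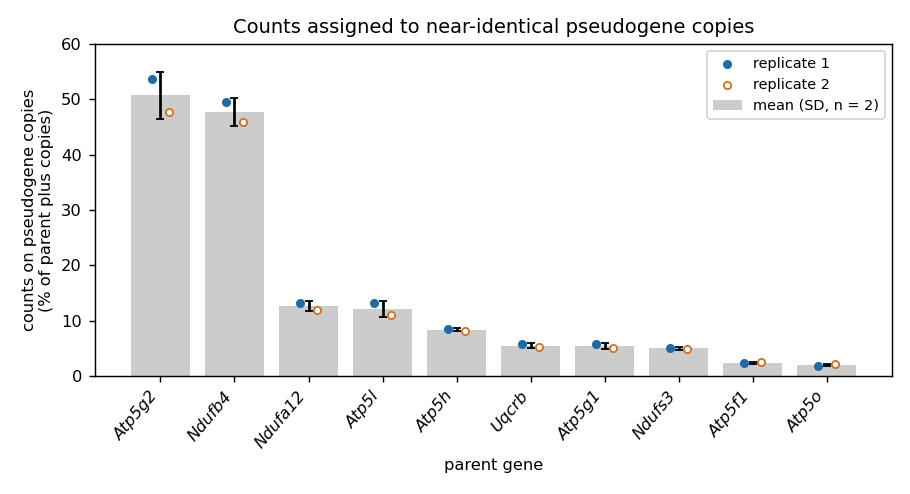
Share of the joint expected counts of parent and near-identical pseudogene copies that was assigned to the copies, in percent from 0, for the 10 parents with the largest share (bars, mean with SD, n = 2, and points for each library). Atp5g2 and Ndufb4 stand near 50%, and every other parent is below 14% in both libraries.

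At the transcript level most members were carried by 1 form. Of the 79 expressed members, 24 had a single annotated transcript, and in 55 the main transcript held 90% or more of the gene's TPM in both libraries. The main transcript was the same in both libraries for 77 genes and was annotated as protein-coding for 77. In 9 genes the main transcript held under 60% in at least 1 library: Atp5a1, Atp5f1, Atp5j, Ndufa5, Ndufb5, Ndufc1, Ndufs1, Ndufv1 and Uqcrq. For Atp5a1, the highest member, the short Atp5a1-204, annotated as subject to nonsense-mediated decay, had 38.9% and 36.8% of TPM, and the protein-coding Atp5a1-201 had 33.99% and 38.8%, so Atp5a1-204 led in replicate 1 and Atp5a1-201 in replicate 2. By counts, which are not divided by length and so favour long forms, Atp5a1-201 had 27896 and 28073 and Atp5a1-204 7830.0 and 6532.

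Members differed between the libraries by about as much as all genes did. The difference taken here is log2(TPM + 0.5) in replicate 2 minus that in replicate 1, over genes whose mean count was 20 or more. Of 79 members compared, 0 differed by over 1.5-fold, where 2.69% of all 11661 genes did (1.84% lower and 0.858% higher in replicate 2). The members are too few for a count of 0 to set them apart from that share. The count also rests on the pseudocount: without it Cox7a1 was just past the limit, with a TPM ratio of 1.502 (replicate 1 over replicate 2). With 1 library on each side there is no test. The median difference of the members was -0.02 and their median absolute difference 0.13, against -0.0022 and 0.14 over all genes. The largest gaps were those of Cox7a1 (-0.56, on few counts), Ndufb2 (-0.55), an accessory subunit at 173 and 118 TPM, and Ndufa5 (0.44). In replicate 2, 44 members were lower and 35 higher, and 50.2% of all genes were lower.

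These small differences went with base composition. Across the 79 members the difference had a Pearson r of -0.413 and a Spearman rho of -0.407 with the GC content of the main transcript, and across 11633 genes the Pearson r was -0.285. Genes are not independent replicates and share both libraries, so these values are descriptions. Of the 40 members with the higher GC content 29 were lower in replicate 2, with a median difference of -0.10, and of the other 39 members 15 were lower, with a median of 0.05. Atp5d, the member with the highest GC content among those expressed (61.1%), differed by -0.31. Not every member followed: Atp5s, with the lowest (38.99%), differed by -0.08, while Cycs, with 40.8%, differed by 0.16. Cox7b, with 41.96%, differed by -0.27, but by 0.14 without transcripts under 50 nt of effective length.

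**Figure D4:**
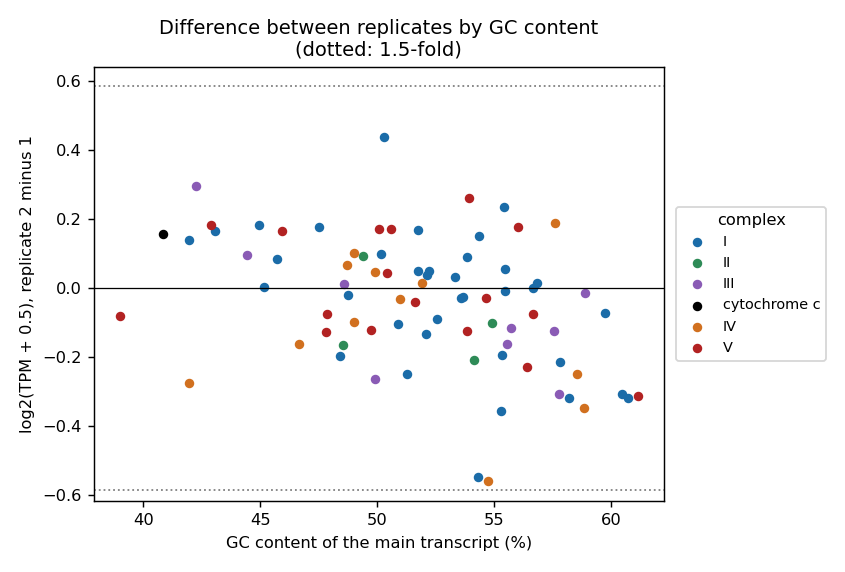
Difference between libraries (replicate 2 minus replicate 1 of log2(TPM + 0.5)) against the GC content of the main transcript in percent for the 79 members compared, coloured by complex. No point passes the dotted lines at 1.5-fold, and points lie lower toward the right.

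Promoter sequence was then set beside these levels, since nuclear respiratory chain genes are known for sites of the factors NRF1, GABP (an ETS family factor) and YY1. RefSeq windows on GRCm38.p6, from 250 bases before to 50 bases after the start, were found for 69 of the 86 members. Motifs were searched on both strands as exact letters. The NRF1 letters GCGCATG were in 14 of 69 member genes (20.3%), against 5.59% of all 16319 genes with a window and 8.94% of the 7893 expressed ones. The shorter NRF1 letters TGCGCA, which overlap the first set where a T precedes it, were in 18 (26.1%), against 11.4% and 17.6%. The YY1 letters ATGGCGG were in 10 (14.5%), against 6.25% and 10.9%. The ETS letters CCGGAAG were in 16 (23.2%), which was near the 23.5% of expressed genes and above the 13.5% of all genes. TATAAA was in 7 (10.1%), against 14.1% and 7.82%. A match is only a match of letters, and no binding was measured in these libraries.

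The 4 stretches below show such matches in genes of different complexes and levels, with the motif in capitals. Each is the longest stretch before the start that no GENCODE exon covers, from RefSeq on GRCm38.p6, minus strand, 5′ to 3′. Cox6a1 (chr5:115348982-115349129) holds GCGCATG on both strands, overlapping, from 162 and 159 bases before the start, and TGCGCA from 118 bases. Ndufb6 (chr4:40279422-40279671) holds the ETS letters in reverse complement from 232 bases and overlapping TGCGCA and GCGCATG from 78 and 77 bases. Atp5l (chr9:44920752-44920992) holds GCGCATG in reverse complement from 239 bases, overlapping TGCGCA from 237 bases, then the ETS letters from 212 bases and TATAAA from 122 bases, both in reverse complement. Uqcr11 (chr10:80406831-80407071) holds the ETS letters from 66 bases.
Cox6a1: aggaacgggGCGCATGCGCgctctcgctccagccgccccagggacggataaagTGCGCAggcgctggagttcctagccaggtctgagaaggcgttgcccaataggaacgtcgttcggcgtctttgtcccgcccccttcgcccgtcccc
Ndufb6: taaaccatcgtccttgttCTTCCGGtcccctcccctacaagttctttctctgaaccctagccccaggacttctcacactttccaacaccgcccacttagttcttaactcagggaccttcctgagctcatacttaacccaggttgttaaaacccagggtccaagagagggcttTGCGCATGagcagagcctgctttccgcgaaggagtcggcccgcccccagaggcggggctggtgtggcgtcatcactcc
Atp5l: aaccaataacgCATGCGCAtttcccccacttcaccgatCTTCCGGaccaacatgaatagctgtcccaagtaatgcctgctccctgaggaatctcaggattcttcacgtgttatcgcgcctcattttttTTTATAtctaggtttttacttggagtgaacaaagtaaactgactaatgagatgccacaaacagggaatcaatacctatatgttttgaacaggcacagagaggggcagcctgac
Uqcr11: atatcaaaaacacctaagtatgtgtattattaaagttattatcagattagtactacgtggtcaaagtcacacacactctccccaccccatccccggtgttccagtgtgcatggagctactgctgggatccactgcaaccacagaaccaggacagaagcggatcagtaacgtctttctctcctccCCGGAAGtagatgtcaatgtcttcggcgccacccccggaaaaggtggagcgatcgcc

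These 4 genes covered a range of levels. Cox6a1 had 197 and 155 TPM, Ndufb6, an accessory subunit of the complex I membrane arm, 194 and 169 TPM, and Atp5l and Uqcr11 had the values given above. Cycs and Ndufa11 also had GCGCATG in their windows, the former at 93.6 and 104 TPM and the latter the lowest expressed gene of complex I by TPM. Atp5g2 and Uqcrc1, with the same letters, were at 390.0 and 369.7 TPM and 250.3 and 229 TPM, so the match went with no single level.

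Several members share their start region with a gene on the opposite strand. A protein-coding gene starting within 500 bases on the other strand was annotated for 19 of 86 members (22.1%) and for 6.18% of all protein-coding genes. Of the 79 expressed members 24.1% had one, against 11.2% of expressed protein-coding genes. The closest pair was Ndufa7, at 153 and 134 TPM, and Rps28, a ribosomal protein gene, 10 bases apart, with Rps28 at 587 and 531 TPM. Sdhd and Timm8b, which encodes a mitochondrial import chaperone, started 98 bases apart, and Timm8b had 185 and 187 TPM. Whether the counting used strand is not given in the sources used here. By their annotated starts the genes of such a pair point away from each other and do not overlap, and misassigned reads were not examined.

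Other genes of the pathway were set beside the members as lists. Of the 45 assembly factors, which insert cofactors and build the complexes, 44 reached 1 TPM in both libraries, and the list's median of 28.2 TPM ± 0.552 was below that of every complex. Cox17, a copper chaperone for complex IV, was their highest at 315 and 334 TPM (mean 325 ± 13.6), and Pet117 had 0 counts. All 14 citric acid cycle genes were expressed, with a median of 92.2 TPM ± 2.00, from Idh2 at 16.5 and 15.9 TPM to Idh3g at 182 and 172 TPM. Of the 44 assembly factors and 14 citric acid cycle genes compared, 0 differed by over 1.5-fold between libraries, where 2.69% of all genes did. These lists are too short for a count of 0 to set them apart from that share.

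Among 14 regulators of respiratory genes, 12 reached 1 TPM in both libraries. The median of the list was 33.9 TPM ± 1.83. The factors whose letters were searched were all present: Nrf1 had 58.2 and 48.01 TPM, Gabpa 59.2 and 63.3 TPM and Yy1 56.4 and 66.03 TPM. The coactivator Ppargc1a, known for driving mitochondrial biogenesis in muscle and brown fat, had 0 counts, and Ppargc1b had 0.35 and 0.13 TPM. Tfam, which packages mitochondrial DNA, was the highest at 87.4 and 132 TPM (mean 109.8 ± 31.8) and the only regulator past 1.5-fold, while its counts of 2729 and 3017 differed less. Its effective length, the part of the transcript that can yield fragments, was given as 1495 and 1137 nt.

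The subunits made from mitochondrial DNA were all detected, 13 of 13. Their median was 776 TPM ± 23.0, above the median of every nuclear-encoded complex. mt-Co1, the catalytic subunit of complex IV, had 13260.0 and 11655 TPM (mean 12457 ± 1135), and mt-Co3 5623 and 4577 TPM (mean 5099.8 ± 739.7). Of the complex I subunits in this list, mt-Nd1 had 1144 and 947 TPM and mt-Nd4l 417 and 138 TPM, the latter past 1.5-fold between libraries. mt-Atp8 was listed at 65629 and 90887 TPM on an effective length of 4.42 and 3.200 nt, so its level cannot be interpreted. Among subunits that the symbol rule leaves out, Ndufab1, the acyl carrier protein of complex I, had 191 and 205 TPM, Usmg5 of complex V 321 and 260.1 TPM and the ATP synthase inhibitor Atpif1 263 and 269.7 TPM.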

How the data were processed

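For each of 2 libraries the authors deposited gene and transcript tables made on mm10 with GENCODE M4, per the labels and files; aligner and quantifier: not given in the sources used here. Expected counts, deposited by the authors, divide shared reads between features and are not normalized. TPM and FPKM values, also deposited, are counts scaled by effective length, which in the deposited tables was shorter than the full length by about 223 nt (median), and by library. The deposited isoform percent is each transcript's share of its gene's TPM. Posterior SDs of counts, deposited as a score of uncertainty, were read for copies. Rows with no gene name held 0.519% and 0.448% of counts.

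Members, lists and rules were chosen with earlier results of these data known. Symbols and coordinates came from GENCODE M21 on GRCm38, joined by identifier without version. Named were the 3 highest and 3 lowest members of each complex, paralogs, core, F1 and complex II genes, members under 1 TPM, past 1.5-fold or with a divided main transcript, and the highest and lowest of each list; Ndufc1, Ndufc2, Ndufv3, other named members and the genes of the promoter comparison were chosen after their values were seen. Some items that the rule names are not reported here. Levels are TPM in each library, with SD over 2 libraries, which may be technical in part. Differences used a pseudocount of 0.5, which understates changes of low genes, and a minimum mean of 20 counts. On simulated data for this comparison (11661 genes), 189 of 200 genes changed 2-fold were recovered and 50 unchanged genes were called. The simulated spread was set by hand and may be below that of the libraries, in which 314 genes passed 1.5-fold. These figures may therefore be too favourable. Promoter letters were kept under 8 bases; a first search with longer NRF1 and YY1 letters found fewer matches in members and in all genes. Copies were found with blastn 2.17.0, and scaling factors for 1 alternative with edgeR 4.0.16 on rounded expected counts. Scripts ran in Python 3.11.15 with pandas 2.3.3 and matplotlib 3.10.9, and in R 4.3.3. Limits from 3 counts cover counting error only, and the labels name no molecular identifiers.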

Additional observations from a re-analysis of the deposited data

How the results depend on the processing

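No paired analysis was possible because the series has 1 group. The order of the complex medians, I, II, IV, III, V from low to high, was the same in all settings tried except when only members at 1 TPM or more were kept, where complex IV passed complex III. With 2 libraries, leaving out either gives the value of the other, which cannot lie beyond the SD, so it says nothing about stability. Adding pseudogene copies and dropping transcripts with an effective length under 50 nt were chosen after seeing the data. The causes of the moves below were not tested.

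With FPKM as deposited, the median in FPKM was 114 for complex I, 122 for complex II, 219.8 for complex III, 181 for complex IV and 436 for complex V. With posterior mean TPM, the median in TPM was 132 for complex I and 498 for complex V. The share of member TPM was 3.01% for complex II there. With full length in place of effective length, the median in TPM was 130.5 for complex I, 167 for complex II, 295 for complex III, 186 for complex IV and 375 for complex V. The share of member TPM was 24.998% for complex I, 3.55% for complex II, 11.9% for complex III, 19.4% for complex IV and 39.6% for complex V there. The ratio of medians was 1.28 for II over I, 2.26 for III over I, 1.42 for IV over I and 2.88 for V over I there. With only members at 1 TPM or more, the median in TPM was 136 for complex I and 380.4 for complex IV. The ratio of medians was 2.797 for IV over I and 3.76 for V over I there. With Ndufa4 and Ndufa4l2 counted in complex IV and Atp5s and Cox7a2l left out, the median in TPM was 195 for complex IV. The share of member TPM was 22.4% for complex I and 22.8% for complex IV there. The ratio of medians was 1.46 for IV over I there. With only members of 200 nt or more of effective length, the median in TPM was 135 for complex I and 257 for complex IV. The share of member TPM was 25.4% for complex I, 3.07% for complex II, 13.5% for complex III, 21.5% for complex IV and 36.1% for complex V there. The ratio of medians was 1.91 for IV over I there. Without transcripts under 50 nt of effective length, the share of member TPM was 2.905% for complex II. With pseudogene copies added, the median in TPM was 140.0 for complex I and 563 for complex V. The share of member TPM was 25.6% for complex I, 2.71% for complex II, 12.2% for complex III, 20.9% for complex IV and 38.04% for complex V there. The ratio of medians was 1.84 for III over I and 4.03 for V over I there. The share was 55.7% for Cox7a2 in the group Cox7a and 33.5% for Atp5g1 in the group Atp5g there. By expected counts, the share was 44.9% for Cox7a2 in the group Cox7a.
With no filter on low counts 1 member differed by over 1.5-fold between libraries, Cox6a2, in place of 0. Library depth limits the silent paralogs to the bounds given for 0 counts, and short transcripts rest on few fragments: Cox7b kept 74.9% of its replicate 1 level without such transcripts.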
